A study of Drosophila melanogaster with 6 samples.

Results

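The genes described here are the Drosophila Myc gene and 6 genes for proteins that bind Myc or work with it. They are dm (diminutive, now named Myc), Max, Mnt, pont (pontin), rept (reptin), lid (little imaginal discs, now named Kdm5) and ash2. All 7 were found by symbol among the 16727 genes of the count table. These 7 genes were chosen with earlier results of these data known. Their messenger RNA was measured in the eye-antennal imaginal disc of the larva, which gives rise to the eye, the antenna and part of the head, at day 11 after egg laying, when growth of the disc had ended, and at day 5, when it was still growing. Each day had 3 libraries of at least 30 discs each, from larvae of genotype y w; +/+; +/+. Larvae of both days were reared at 25 °C on food made with the yeast strain YPH erg2∆::TRP1, which lacks the sterol precursors of the moulting hormone, so that they did not pupate. The day 11 larvae were also older and had spent longer on this food, and effects of age, diet and the end of growth cannot be told apart. Larvae on other food were not analysed here.

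Myc is a transcription factor that drives cell growth. It binds DNA at E-box sites as a pair with Max, and Mnt pairs with Max at the same kind of site and represses, so that Myc and Mnt share one partner. In imaginal discs, Myc raises the size of cells, largely through genes for making ribosomes, and reduced function of Myc gives small flies. Pontin and Reptin are related ATPases that work together in chromatin-remodelling and chaperone complexes and were found to interact with Myc in flies. Lid is a histone demethylase and Ash2 a subunit of histone methyltransferase complexes, and both were identified as proteins that Myc needs to drive growth in the fly.

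At day 11 the dm and ash2 transcripts were higher and the pont and rept transcripts lower than at day 5, while Max, Mnt and lid did not pass the test. dm rose 1.49-fold and ash2 2.67-fold. pont and rept fell to 0.584 and 0.489 of their day 5 level. All 7 genes passed the filter on low counts. Of the 7, 2 were called higher and 2 lower, against 19.1% of all 8010 genes tested that were called higher and 17.9% called lower, or 37.0% in either direction (quasi-likelihood test of edgeR, p adjusted after Benjamini and Hochberg over all tested genes, threshold 0.05). With total-count scaling, 864 genes were called higher and 2207 lower, in place of 1533 and 1432. The levels of the 2 days did not overlap for 5 of the 7 genes, which held for 50.8% of all genes tested. In so few genes, the shares among the 7 are a description and not a result about the group.

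**Figure D1:**
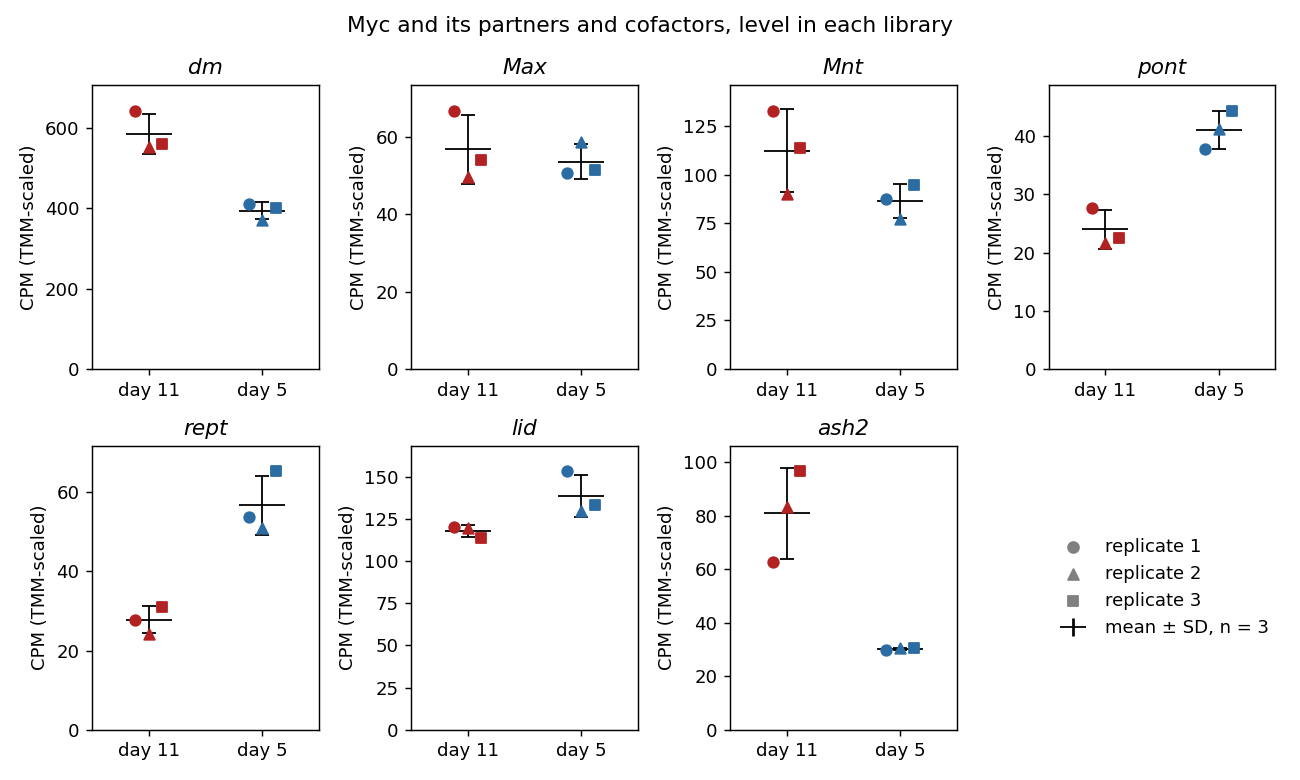
Level of each of the 7 genes in CPM (TMM-scaled, linear axes from 0) in the 3 day 11 and 3 day 5 libraries; each symbol is 1 library, and bars give the mean ± SD. The days are apart for dm, pont, rept, lid and ash2 and overlap for Max and Mnt.

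Total counts ranged between 7670180 and 9049513 per day 11 library and between 6542782 and 7950251 per day 5 library, from tags near the 3′ ends of polyadenylated transcripts. A pair of short non-coding RNAs, CR40469 and CR34335, took 26.3%, 40.8% and 39.6% of the counts in day 11 replicates 1, 2 and 3, against 14.4% to 19.0% at day 5, so levels are given after TMM scaling. The 10 markers of the eye-antennal disc had counts in every library, with a summed level of 2086 to 2702 CPM at day 11 and 2644 to 2764 CPM at day 5. Most of that sum was hth, with 1510 to 1900 CPM at day 11 and 1695 to 1845 CPM at day 5. Of the 10 markers 5 were lower at day 11 (dac -2.54, dan -1.78, eya -1.49, Optix -1.06 and ey -0.90 on the log2 scale) and none higher, with a median log2 fold change of -0.67. Beside this and the marker counts that follow, 17.9% of all genes tested were called lower and 19.1% higher, with a median of -0.01. Transcripts listed as markers of other tissues or cell types were also counted. The summed level of 8 haemocyte markers was 95.2 to 237.2 CPM at day 11 and 57.4 to 88.0 CPM at day 5. Of the 6 tested, NimC1 (2.32) and eater (1.85) were called higher and 4 were not called. The summed level of 6 muscle and trachea markers was 75.9 to 136.0 CPM at day 11 and 137.2 to 384.1 CPM at day 5. Of the 4 tested, Mhc (-1.65) was called lower and 3 were not called. The 7 fat body markers summed to 86.5 to 1068 CPM at day 11, the highest in replicate 2, and to 75.3 to 780.3 CPM at day 5. The 7 brain and neuroblast markers summed to 45.6 to 62.7 CPM at day 11 and 23.4 to 38.1 CPM at day 5, with the neuroblast gene wor at 0 in all libraries but 1. Of the 4 tested brain and neuroblast markers, insc and pros were called higher and 2 were not called, with a median of 0.92. With total-count scaling 1 of these 4 was called higher and 1 lower. The 7 glia markers summed to 186.0 to 207.2 CPM at day 11 and 235.0 to 242.2 CPM at day 5. Of the 6 tested glia markers Gli was called lower (-0.84), wrapper (2.04) and moody (0.56) higher, and the median was 0.13. gcm was at 0 in the day 5 libraries. What part the cells behind these markers had in the values below was not tested. In such bulk samples, fewer cells of a type and less RNA per cell cannot be told apart.

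dm, the Myc gene itself, had 642.8, 552.8 and 560.1 CPM in the 3 day 11 libraries, against 410.4, 369.6 and 401.1 CPM in the 3 day 5 libraries. Every day 11 library was above every day 5 library, and day 11 replicate 1 was the highest of all. The means were 585.3 ± 49.99 CPM at day 11 and 393.7 ± 21.4 CPM at day 5 (SD, n = 3 each), from 3068 to 6007 counts per library. The log2 fold change was 0.57 (SE 0.12, 95% interval 0.32 to 0.82, edgeR adjusted p = 0.00252). This call depended on the scaling: with total counts alone, under which the median of all genes stood at -0.28 on the log2 scale, against -0.01 with TMM, the change of dm was 0.30 (adjusted p = 0.216). With the trend of fold changes along transcript length removed, it was 0.33 (adjusted p = 0.0471).

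The dm locus lies on chromosome X from 3373159 to 3391697 on the plus strand (dm6). Its 2 annotated transcripts end 5686 bases apart, and the lengths are 3484 nt and 9166 nt. The count table does not separate the 2 ends, and a shift between them could not be told apart from a change in level. The farther end lies within an exon of CG12535 on the opposite strand, which had only 1 to 9 counts per library. Whether the counting took the strand into account is unknown, and so is how reads from this overlap were assigned. The non-coding RNA CR44999, which overlaps dm on the same strand, had 9 to 29 counts.

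Max, the shared partner of Myc and Mnt, did not pass the test. It had 66.8, 49.7 and 54.1 CPM in the day 11 libraries, against 50.7, 58.8 and 51.5 CPM in the day 5 libraries. The day 5 values lay inside the range of the day 11 values. The means were 56.8 ± 8.89 CPM at day 11 and 53.6 ± 4.47 CPM at day 5 (SD, n = 3 each), and the log2 fold change was 0.08 (SE 0.15, 95% interval -0.25 to 0.42, edgeR adjusted p = 0.692). The interval includes both a small rise and a small fall, and the sign turned with total-count scaling (-0.17) and without day 11 replicate 1 (-0.05). With the length trend removed, the change of Max was 0.38 (adjusted p = 0.0743). The gene lies on chromosome 3L from 19262232 to 19264184 on the minus strand. Its 3′ end overlaps that of Bet1, a membrane trafficking gene on the other strand, by 206 bases. Bet1 had 7.83 ± 0.83 CPM at day 11 and 16.2 ± 1.53 CPM at day 5 (SD, n = 3 each). No source used here states whether the counting took the strand into account, and reads from this overlap may belong to either gene.

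Mnt, the repressor of the network, did not pass the test either. Its levels were 133.0, 90.2 and 113.8 CPM in the day 11 libraries and 87.6, 77.3 and 94.9 CPM in the day 5 libraries. Day 11 replicates 1 and 3 were above the day 5 range, and replicate 2 lay inside it. The log2 fold change was 0.38 (SE 0.16, 95% interval 0.03 to 0.73, edgeR adjusted p = 0.0842). It passed without day 11 replicate 2, the library richest in fat body transcripts (0.51, adjusted p = 0.0175), and with scaling by total counts that leave out CR40469 and CR34335 (0.47, adjusted p = 0.0355). It was smaller with total-count scaling (0.12, adjusted p = 0.708), with the length trend removed (0.27, adjusted p = 0.227) and without day 11 replicate 1 (0.24, adjusted p = 0.202). Mnt lies on chromosome X from 3671801 to 3701672, and 10 transcripts are annotated.

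**Figure D2:**
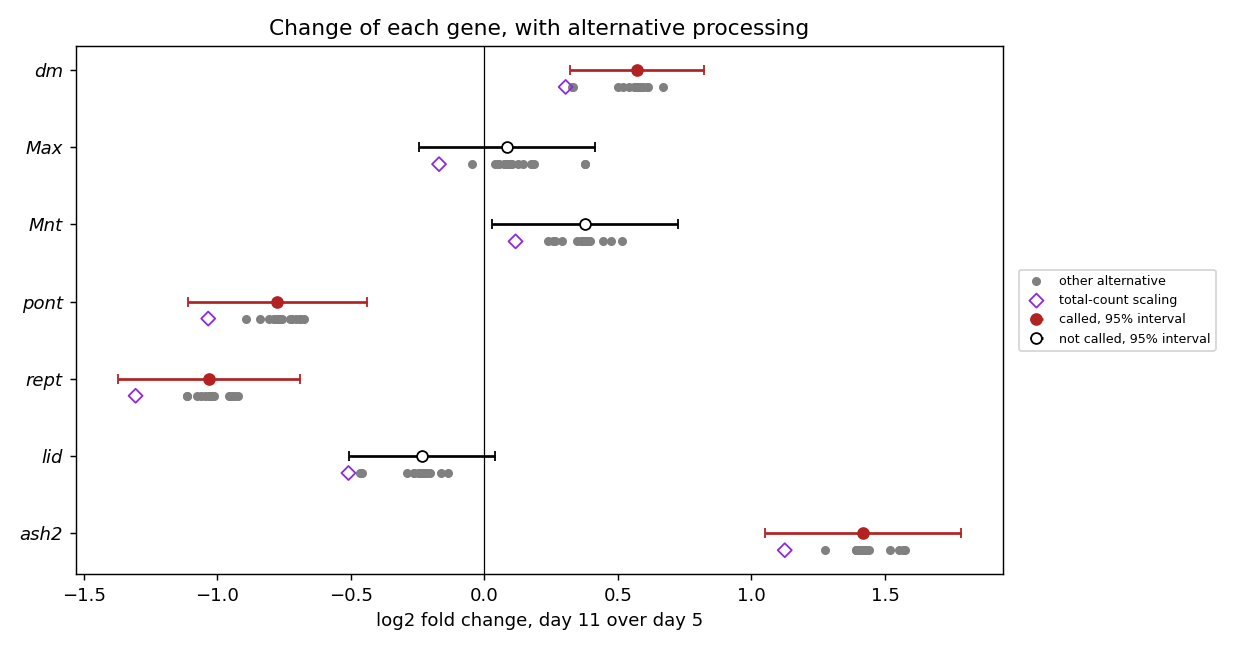
Log2 fold change of each gene, day 11 over day 5, with its 95% interval (large symbols, filled where called), and the values under 18 alternative ways of processing (small symbols, with total-count scaling as open diamonds). All alternatives are above 0 for dm and ash2 and below 0 for pont and rept, and those of Max lie on both sides of 0.

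pont and rept both fell. pont had 27.7, 21.7 and 22.5 CPM in the day 11 libraries, against 37.8, 41.2 and 44.4 CPM in the day 5 libraries. All day 11 values were below all day 5 values. The means were 24.0 ± 3.27 CPM at day 11 and 41.1 ± 3.28 CPM at day 5 (SD, n = 3 each), and the log2 fold change was -0.78 (SE 0.15, 95% interval -1.11 to -0.44, edgeR adjusted p = 0.0023).

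rept had 27.8, 24.3 and 31.1 CPM in the day 11 libraries, against 53.9, 51.1 and 65.3 CPM in the day 5 libraries. Here too the days were apart, and the highest day 11 library was well below the lowest day 5 library. The means were 27.7 ± 3.41 CPM at day 11 and 56.7 ± 7.52 CPM at day 5 (SD, n = 3 each), and the log2 fold change was -1.03 (SE 0.16, 95% interval -1.37 to -0.69, edgeR adjusted p = 0.000436). Among all genes tested, this change stood at percentile 7.85 from the most negative, and that of pont at percentile 13.7. The falls of pont and rept kept their calls in all 18 alternatives, between -1.03 and -0.68 for pont and between -1.31 and -0.92 for rept. These were the least counted of the 7 genes at day 11, with 141 to 259 counts of pont and 158 to 260 of rept per library. pont lies on chromosome 3R from 10262123 to 10263899, with 1 annotated transcript of 1659 nt. rept lies on chromosome 3L from 19255340 to 19257111, close to Max, which is read from the opposite strand and was not called.

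lid, the demethylase gene, did not pass the test. It had 120.4, 119.6 and 113.8 CPM in the day 11 libraries and 153.1, 129.5 and 133.2 CPM in the day 5 libraries. The days did not overlap, but the gap was small beside the spread at day 5. The log2 fold change was -0.23 (SE 0.13, 95% interval -0.51 to 0.04, edgeR adjusted p = 0.168). lid has long transcripts, with a median of 5907 nt, and with the length trend removed it was called lower (-0.47, adjusted p = 0.0141). It was also called with total-count scaling (-0.51, adjusted p = 0.0449). Its locus is chromosome 2L from 5989400 to 5999501.

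ash2 had the largest change of the 7 genes. Its levels were 62.8, 83.2 and 96.5 CPM in the day 11 libraries, against 29.6, 30.5 and 30.5 CPM in the day 5 libraries. The day 5 libraries were nearly alike, the day 11 libraries spread widely, and all of the day 11 libraries were above the day 5 ones. The means were 80.8 ± 17.0 CPM at day 11 and 30.2 ± 0.49 CPM at day 5 (SD, n = 3 each). The log2 fold change was 1.42 (SE 0.17, 95% interval 1.05 to 1.78, edgeR adjusted p = 8.27e-05), and it kept its call in all 18 alternatives, between 1.12 and 1.57. ash2 lies on chromosome 3R from 24650125 to 24653376, with 3 annotated transcripts that share 1 end. It overlaps CG31125 on the other strand by only 6 bases, and CG31125 itself had 11.4 ± 2.20 CPM at day 11 and 11.8 ± 3.05 CPM at day 5 (SD, n = 3 each).

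Within the day 11 libraries, replicate 1 had the highest level of dm, Max, Mnt, pont and lid and the lowest of ash2. This library also had the smallest share of CR40469 and CR34335. Its part in these levels was not tested. Without it, dm had a log2 fold change of 0.50, pont -0.89, rept -1.03 and ash2 1.57, all still called (edgeR adjusted p of 0.00118, 0.000358, 0.000169 and 3.68e-07).

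The balance between the genes was followed as the log2 ratio of their levels within each library, where the scaling cancels apart from a pseudocount of 1 CPM. A difference between days is then a difference in how far the 2 genes changed, and the ratio itself says nothing of protein amounts. With 3 libraries a day an exact permutation test cannot give a p below 0.1, so these are read by their values and by whether the days overlap. There were 5 ratios, and 4 of them reached that smallest p (two-sided exact p = 0.1, adjusted over the 5 ratios p = 0.125).

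The log2 ratio of dm to Max was 3.25, 3.45 and 3.35 in the day 11 libraries, against 2.99, 2.63 and 2.94 in the day 5 libraries. The days did not overlap, and the means differed by 0.49. This difference depended on the setting: with the length trend of each gene subtracted it was -0.045 (two-sided exact p = 0.7). The log2 ratio of dm to Mnt was 2.26, 2.60 and 2.29 in the day 11 libraries, against 2.21, 2.24 and 2.07 in the day 5 libraries. It was higher at day 11 by 0.21, but the gap between the nearest libraries was small, and most of the difference came from day 11 replicate 2. Without that library it was 0.10, and with the length trends subtracted 0.075.

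The log2 ratio of pont to rept was -0.01, -0.16 and -0.45 in the day 11 libraries, against -0.50, -0.30 and -0.55 in the day 5 libraries. The days overlapped, with a difference of 0.24 (exact p = 0.2, adjusted p = 0.2), so an unequal fall of these partner genes was not shown. The ratios that moved most were those of lid to ash2, with a mean log2 ratio of 0.56 ± 0.35 at day 11 and 2.16 ± 0.15 at day 5, and of dm to pont, with 4.56 ± 0.06 in the day 11 libraries and 3.23 ± 0.15 in the day 5 libraries (SD, n = 3 each). In both, the days were far apart. The differences were -1.60 for lid to ash2 and 1.33 for dm to pont.

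**Figure D3:**
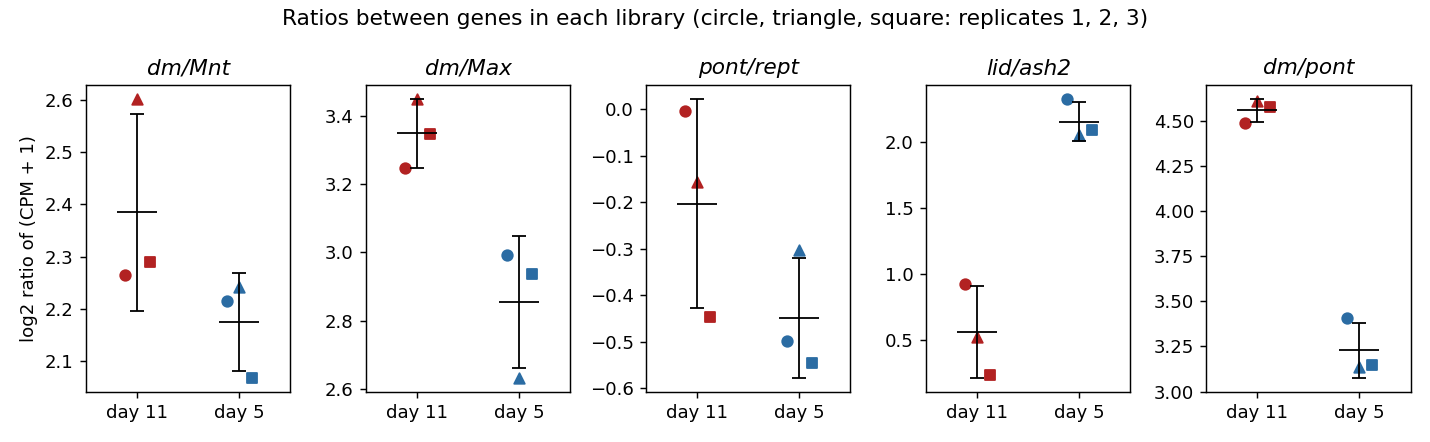
Log2 ratio of levels (CPM + 1) between pairs of genes in each day 11 and day 5 library; bars give the mean ± SD of 3 libraries, and each panel has its own axis. The days are apart in dm/Mnt, dm/Max, lid/ash2 and dm/pont and overlap in pont/rept.

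The genes whose course over the 6 libraries was most like that of dm were Crtc, a coactivator of CREB, tud, a germ granule gene, d (dachs), the myosin gene of the Fat pathway, and CG12822. They were the nearest of 3744 tested genes averaging at least 20 CPM, by the root mean square difference of centred log2 CPM, which was 0.035 for Crtc, 0.037 for tud, 0.040 for d and 0.044 for CG12822. Mnt came 378th and Max 1228th in that order. For pont the nearest were CG11076, CG12608, CG5589 (ais) and CG6463 (ND-13B, a subunit gene of respiratory complex I), at 0.030 to 0.058, and rept came 297th. For rept they were the tetraspanin gene lbm, the Bearded family gene Tom, the clamp loader gene RfC4 and the proteasome gene Prosalpha4, at 0.087 to 0.104, and pont came 111th. With 3 libraries on each side this likeness is mostly that of the difference between the days.

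Most genes listed as targets of Myc were lower at day 11. A list of 20 such genes, most of them for making ribosomes, had 19 members in the table, all tested. Of these, 14 were lower at day 11, none higher and 5 not called, beside 17.9% lower and 19.1% higher of all genes tested. The median log2 fold change was -0.95, against -0.01 for all genes tested. The list was drawn up with earlier results of these data known, and its members are a description here. nop5, for a core protein of the snoRNPs that guide methylation of ribosomal RNA, had 108.1 ± 5.48 CPM at day 11 and 340.4 ± 44.4 CPM at day 5 (SD, n = 3 each). Nop60B, the pseudouridine synthase gene, had 223.3 ± 15.3 CPM at day 11 and 597.4 ± 65.4 CPM at day 5 (SD, n = 3 each). Their log2 fold changes were -1.66 and -1.42 (edgeR adjusted p = 5.4e-06 and 9.87e-06).

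The methyltransferase gene Fib (-1.54), Nopp140 (-1.34), Nop56 (-1.21) and mod, the nucleolar protein gene modulo (-1.20), fell as well. So did pit, Nnp-1, nclb, Tif-IA, RpI1, RpI135, Ns1 and Cdk4, by log2 fold changes of -1.31 for nclb to -0.55 for Cdk4. Tif-IA, RpI1 and RpI135 serve RNA polymerase I, which transcribes the ribosomal RNA genes. The uncalled members with most counts were Set1 (0.17, edgeR adjusted p = 0.408) and the ribosome assembly factor gene eIF6 (-0.08, adjusted p = 0.69). In the alternatives, 11 to 14 of the 18 or 19 genes tested were called lower and none higher.

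**Figure D4:**
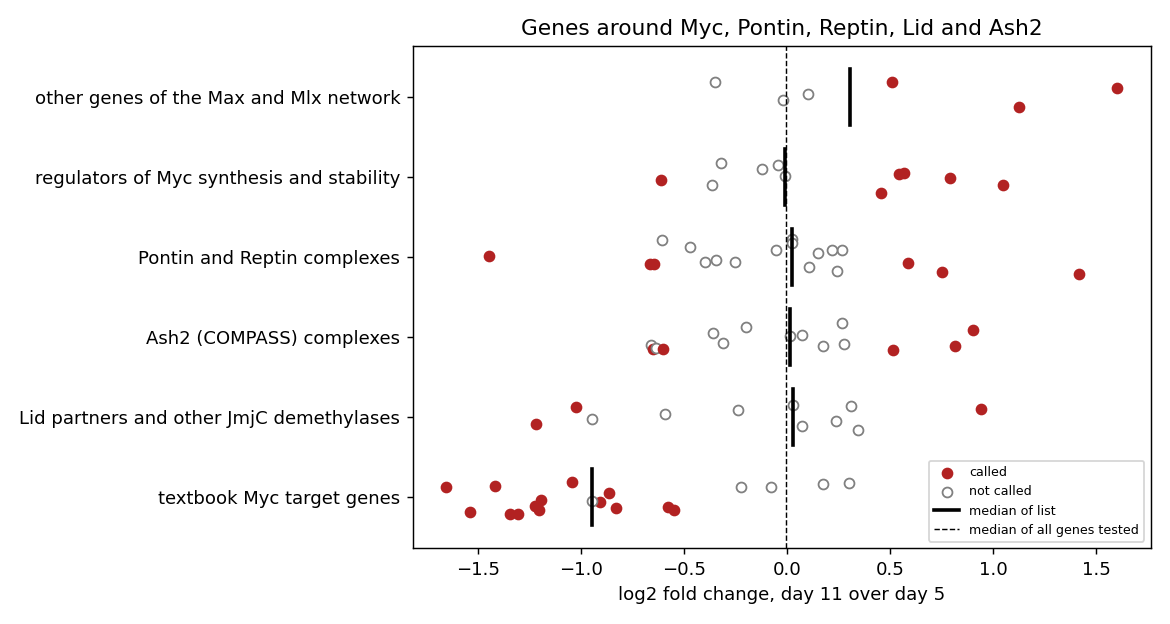
Log2 fold change, day 11 over day 5, of each tested gene in 6 lists around the Myc network; filled points were called, thick bars mark the median of a list and the dashed line that of all genes tested. The Myc target genes lie mostly below 0, with a median of -0.95, and the other lists spread to both sides.

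Among 6 other genes of related leucine zipper factors, 3 rose and none fell, beside 19.1% and 17.9% of all genes tested. With either day 11 replicate 3 or day 5 replicate 2 left out, 1 rose. Among all genes tested, 1187 and 1197 were then called higher. Mondo, listed as Mio, and bigmax encode a pair that senses sugar, in the manner of Myc and Max. bigmax had 4.60, 4.00 and 4.22 CPM at day 11, against 1.72, 0.602 and 1.90 CPM at day 5, which gave a log2 difference of 1.60 (SE 0.47) and an edgeR adjusted p = 0.0198, at low counts. Its call was lost without day 11 replicate 3 and without day 5 replicate 2 (adjusted p up to 0.0616). Mio had 36.6 ± 5.74 CPM at day 11 and 25.7 ± 5.00 CPM at day 5 (SD, n = 3 each; 0.51, adjusted p = 0.0431), and lost its call in 8 of 18 alternatives. crp, the AP-4 homologue, had 480.8 ± 81.2 CPM at day 11 and 220.5 ± 24.2 CPM at day 5 (SD, n = 3 each; 1.13, adjusted p = 0.00016), and kept its call in all of them. The sterol regulator gene HLH106 (SREBP) and Mitf were not called (0.10 and -0.35). Mitf was called lower in 3 of 18 alternatives, with total-count scaling among them (-0.64, adjusted p = 0.0207).

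Of 11 genes that act on the making or the stability of Myc, 5 rose, 1 fell and 5 were not called, beside 19.1% higher and 17.9% lower of all genes tested, and the median log2 fold change was -0.01. sgg, the GSK-3 kinase that marks Myc for breakdown, had 228.3 ± 51.8 CPM at day 11 and 110.3 ± 7.84 CPM at day 5 (SD, n = 3 each), or 1.05 on the log2 scale (edgeR adjusted p = 0.00055). The NHL-domain genes mei-P26 (0.79) and brat (0.57), known to lower Myc in stem cell lineages, and nej, the CBP acetyltransferase gene (0.45), rose as well. Splicing factor genes that act on dm transcription went in opposite directions. The repressor gene hfp, listed as pUf68, rose to 220.6 ± 18.0 CPM at day 11, against 151.7 ± 12.0 CPM at day 5 (0.54, adjusted p = 0.00563). The activator gene Psi fell to 105.1 ± 2.65 CPM at day 11, against 160.9 ± 17.8 CPM at day 5 (SD, n = 3 each; -0.61, adjusted p = 0.00322). The calls of pUf68, brat and nej were lost with total-count scaling (adjusted p of 0.272, 0.284 and 0.454). In that setting 2 of the 11 rose and 2 fell, beside 864 higher and 2207 lower of all 8010 genes tested. With the length trend removed 3 rose and 2 fell, beside 1500 higher and 1136 lower of all genes tested. There nej (0.10, adjusted p = 0.538) and brat (0.37, adjusted p = 0.069) were not called. The call of brat was also lost without day 5 replicate 2 (adjusted p = 0.0517) and that of nej without day 5 replicate 3 (adjusted p = 0.0589). The kinase genes CkIalpha (-0.32) and CkIIalpha (-0.12) were not called. Without day 11 replicate 1, CkIalpha was called lower (-0.49, adjusted p = 0.00435).

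The list for the complexes that hold Pontin and Reptin had 20 genes, for other subunits and for proteins that work with them, such as the chaperone Hsp83. Of the 20, 19 were tested. Of these, 3 rose, 3 fell and 13 were not called, shares near the 19.1% and 17.9% of all genes tested, with a median log2 fold change of 0.02. Gas41 (-1.45, edgeR adjusted p = 0.000454), dom, the remodelling ATPase gene (-0.66, adjusted p = 0.00152), and Bap55, an actin-related subunit gene (-0.64, adjusted p = 0.00397), fell. Ing3 (1.42, adjusted p = 0.0042), pho, a Polycomb DNA-binding factor gene (0.59, adjusted p = 0.00348), and the co-chaperone gene Nop17l (0.75, adjusted p = 0.0303) rose. Nop17l lost its call in 6 of 18 alternatives. The chaperone gene Hsp83 (-0.40) and Nipped-A (0.26) were not called. Hsp83 was called lower in 5 of 18 alternatives, with total-count scaling among them (-0.70, adjusted p = 0.00869). Nipped-A was called higher without day 11 replicate 1 (0.34, adjusted p = 0.0367). With total-count scaling 1 rose and 6 fell, beside 864 higher and 2207 lower of all 8010 genes tested. In that setting pho was not called (0.32).

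Among 15 genes for other members of the methyltransferase complexes of Ash2, 3 rose, 2 fell and 10 were not called, with a median of 0.02. These shares are near the 19.1% and 17.9% of all genes tested. The methyltransferase gene trx had 357.8 ± 40.2 CPM at day 11 and 191.6 ± 12.4 CPM at day 5 (SD, n = 3 each; 0.90, edgeR adjusted p = 0.000258). Mnn1, the menin gene, rose by 0.82 (adjusted p = 0.00357) and Lpt by 0.51 (adjusted p = 0.026). wds, the gene of a core subunit that these complexes share with Ash2, fell to 62.6 ± 9.86 CPM at day 11, against 98.5 ± 8.45 CPM at day 5 (SD, n = 3 each; -0.65, adjusted p = 0.00526). ptip fell by 0.60 (adjusted p = 0.0435). The calls of Lpt and ptip were lost in 8 and 9 of 18 alternatives. With total-count scaling 1 rose and 3 fell, beside 864 higher and 2207 lower of all 8010 genes tested. In that setting Mnn1 was not called (0.56, adjusted p = 0.0865). The methyltransferase gene Set1 and Ncoa6 (0.02) were not called.

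Of 11 genes for partners of Lid and other demethylases of its kind, 1 rose, 2 fell and 8 were not called, beside 19.1% higher and 17.9% lower of all genes tested. Rpd3, the histone deacetylase gene now named HDAC1, had 28.7, 51.7 and 31.1 CPM in the day 11 libraries, against 86.0, 82.9 and 90.1 CPM in the day 5 libraries. The days were far apart, with day 11 replicate 2 above the other day 11 libraries, and the log2 fold change was -1.22 (SE 0.21, edgeR adjusted p = 0.000967). The demethylase genes Kdm2 (0.94, adjusted p = 0.00146) and CG2982, now NO66 (-1.03, adjusted p = 0.00156), moved in opposite directions. Jarid2 (0.07) and the corepressor gene Sin3A (0.03) were not called. With total-count scaling 1 rose and 4 fell, beside 864 higher and 2207 lower of all 8010 genes tested. With CR40469 and CR34335 left out of the totals 2 rose and 2 fell, beside 1838 higher and 1139 lower.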

How the data were processed

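Libraries were made from polyadenylated RNA with the QuantSeq 3′ mRNA-Seq FWD kit, per the labels' protocols. The authors deposited raw counts of reads for each gene, as whole numbers, in 1 column per library. Per the submitters' processing notes, FastQC, cutadapt, STAR 2.6.1d and the dm6 genome were used. The annotation, the counter, its strand setting and the handling of reads with several matches are unknown (not given in the sources used here).

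Groups follow the labelled day. After filterByExpr and TMM scaling, 8010 genes were compared between day 11 and day 5 by the two-sided quasi-likelihood test of edgeR 4.0.16 (robust shrinkage, R 4.3.3). All 8010 p-values were adjusted together after Benjamini and Hochberg, and 0.05 was the threshold. CPM are TMM-scaled, and intervals are 95% intervals of that fit. A floor of 3 counts in a library stands for 0.331 to 0.458 CPM before TMM scaling and covers counting error only. The labels do not say whether libraries of one day are separate cultures, and p-values then measure no more than how these samples spread, which may be technical. Libraries of the same day differed by more than sampling noise (chi-square per degree of freedom 8.45 to 86.7).

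Ratios were compared with an exact permutation test (scipy 1.17.1). Coordinates (1-based) and transcript lengths came from the Ensembl annotation of BDGP6, which has dm6 coordinates, and 99.3% of the tested genes had a length. Symbols were matched directly or through RefSeq synonyms, and 1 listed gene, nol12, was not found. The 7 genes and the lists were chosen with earlier results of these data known. All 7 genes are named. From each list up to 6 called genes with the smallest adjusted p and up to 2 uncalled genes of highest level are named. From the target list all called genes are named, the further ones chosen after seeing their values. Simulated counts were used to test the steps. Alternatives were 4 other scalings, other low-count filters, the DESeq2 1.42.0 Wald test, limma-voom (limma 3.58.1), no robust shrinkage, a replicate block, removal of a loess trend along transcript length, and each library left out in turn. For the ratios, removal of the length trend was added after seeing the data.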

Additional observations from a re-analysis of the deposited data

How the results depend on the processing

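The calls of pont, rept and ash2 held in all 18 alternatives, and that of dm in all but total-count scaling (0.30) and the length trend removed together with the replicate block (0.33, edgeR adjusted p = 0.0502). In each of these 2 settings 1 of the 7 genes was called higher in place of 2, and 3 were called lower in place of 2, with lid added. Total-count scaling also gave 864 higher and 2207 lower genes in place of 1533 and 1432, with a median of -0.28 over all genes. Of the 6 lists, 7 genes were then higher in place of 15, and 30 lower in place of 22. Leaving out 1 library at a time gave 1187 to 1568 higher and 1015 to 1440 lower genes, 2 or 3 of the 7 genes higher and 2 lower, and 10 to 14 higher and 18 to 25 lower genes of the 6 lists.

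A pairing of the libraries by replicate number was not evident. The deviations of same-numbered libraries from their day means correlated at 0.05, 0.19 and -0.09, and those of differently numbered ones at -0.23 to 0.17. With 3 libraries a day such correlations cannot exclude a pairing. With the replicate block 1518 genes were higher and 1422 lower, and the 7 genes had the same calls. Among the genes named from the lists by their adjusted p or level, only ptip lost its call. Of the glia markers 1 was called higher in this setting, in place of 2, and of the 6 tested haemocyte markers 4, in place of 2. All 4 tested muscle and trachea markers were called lower, in place of 1. The ratios were recomputed with a pseudocount of 0.25 CPM, with the replicate block and without each library, and kept their direction in these. A removal of the length trend, added after seeing the data, turned dm/Max to -0.045 and gave 0.075 for dm/Mnt, with pont/rept, lid/ash2 and dm/pont in the same direction. Leaving out 1 library gave 0.10 to 0.27 for dm/Mnt, 0.38 to 0.56 for dm/Max, 0.15 to 0.37 for pont/rept, -1.78 to -1.44 for lid/ash2 and 1.28 to 1.42 for dm/pont.

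Values of uncalled genes near 0 changed sign in some settings, and the cause was not tested. With total-count scaling the log2 fold changes were -0.17 for Max, -0.18 for HLH106, -0.0208 for Nipped-A, -0.0945 for Set1, -0.26 for Ncoa6, -0.19 for Jarid2 and -0.25 for Sin3A. With the length trend removed they were -0.0472 for HLH106, -0.0654 for Nipped-A, -0.0389 for Set1, -0.30 for Ncoa6, -0.22 for Jarid2, -0.25 for Sin3A and 0.19 for eIF6. With the replicate block as well they were -0.0448 for HLH106, -0.0585 for Nipped-A, -0.0304 for Set1, -0.29 for Ncoa6, -0.21 for Jarid2, -0.24 for Sin3A and 0.20 for eIF6. Upper quartile scaling gave -0.0132 for Ncoa6 and -0.00198 for Sin3A, and total counts without CR40469 and CR34335 gave 0.0183 for eIF6. With a library left out, values ranged from -0.0464 to 0.18 for Max, -0.0619 to 0.0478 for Ncoa6, -0.0256 to 0.17 for Jarid2, -0.0485 to 0.14 for Sin3A and -0.17 to 0.00398 for eIF6. The planned search for E-boxes in promoters was not run, because promoter sequences were not used here. The lowest count of any of the 7 genes in a library was 141, of pont, far above the floor of 3 counts.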
